A study of Mus musculus with 4 samples.

Results

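A set of 45 interferon-induced genes was followed in the parietal peritoneum of mice (the serous membrane lining the abdominal wall) after repeated injection of chlorhexidine gluconate. The genes were taken from a list of transcripts known to respond to interferons, which was chosen with earlier results of these data known. Of these 45, 42 were measured by a probe set (a group of short probes against 1 transcript) that is assigned to 1 gene, out of 18193 genes measured in all. Isg15, Oas1g and Ifi44 had no such probe set in the annotation used here and were not analysed here. The list holds 12 type I-like genes (the Ifit, Oas and Mx families, 11 measured) and 5 interferon-gamma-like genes (Gbp2, Gbp3, Igtp, Irgm1 and Iigp1, all measured). The other 28 genes, 26 of them measured, belong to neither class.

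The study compared 4 groups of C57BL/6J mice, with 1 array each. CG_Tg and PBS_Tg came from SAP-BNP-Tg mice, in which the serum amyloid P promoter drives a transgene for brain natriuretic peptide (BNP), and CG_WT and PBS_WT came from wild-type mice. That promoter is known to act in liver cells, from which the peptide is released into blood. Both CG groups received 0.1% chlorhexidine gluconate, a peritoneal irritant used as an antiseptic elsewhere, dissolved in 15% ethanol and 85% PBS. The dose was 0.01 mL per gram of body weight, given into the abdominal cavity at 3 injections per week for 21 days. Both PBS groups are labelled ethanol/PBS, and neither their volume and schedule nor the number of mice behind any array is given in the labels. The mice's age and sex are not given either. With 1 array a group, no difference below has a replicate check, and the number of arrays limits its precision.

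Interferons are secreted proteins that cells release on sensing foreign or misplaced nucleic acid or on activation of lymphocytes. Type I interferons act through the receptor chains Ifnar1 and Ifnar2 and switch on genes through a complex that contains Stat2 and Irf9, which binds the interferon-stimulated response element. Interferon gamma, made mainly by T and NK cells, acts through Ifngr1 and Ifngr2 and is the stronger inducer of the guanylate-binding proteins (Gbp) and immunity-related GTPases (Irg). The classes overlap, since most of these genes respond to both kinds of interferon to some degree.

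Each array reports a signal per probe set on a linear scale, with a call of Present, Marginal or Absent that states whether the transcript was detected. Signals are given after scaling the arrays to a common trimmed mean ("scaled signal"). Values of different genes come from different probes and cannot be ranked against each other. The call of higher or lower is a rule of size, not a test. It needed a difference of at least 2-fold (1 on the log2 scale), and the brighter array had to be Present with a signal at or above the 25th percentile of its Present probe sets. Of 45037 probe sets, between 50.5% and 55.1% were Present on each array, and 12754 genes were Present on at least 1 array. The PBS_WT array stood apart in its control probes, with a mean 18S rRNA signal of 898.5 against 82.8 to 117 on the others and a 3-prime to middle beta-actin ratio of 5.81 against 2.23 to 2.84. Nppb, which encodes BNP, was Absent on all 4 arrays (4.04 in CG_Tg, 9.04 in PBS_Tg, 20.1 in CG_WT and 6.91 in PBS_WT), so the genotype labels were not checked by the transgene's transcript. All 10 mesothelial markers examined were Present on all 4 arrays, as were all 8 skeletal muscle markers.

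Interferon-induced genes stood higher with chlorhexidine in both genotypes. In SAP-BNP-Tg peritoneum 32 of 42 members were called higher, where 3.81% of all genes were, and in wild type 42 of 42 were, where 8.22% of all genes were. No member was called lower in either genotype, against 1.4% of all genes in SAP-BNP-Tg and 4.93% in wild type. These shares of all genes also stand beside each count of a gene group below. The median log2 difference was 1.58 in SAP-BNP-Tg and 2.55 in wild type, and the median of all genes was 0.00 in each. All 32 members called higher in SAP-BNP-Tg were thus called in both genotypes, as were 3.03% of all genes. The difference was above 0 for 42 of 42 members in each genotype, as it was for 50.1% of all genes in SAP-BNP-Tg and 49.9% in wild type. For each of the 42 members, both CG arrays lay above both PBS arrays, which held for 30.1% of all genes. The list was chosen with earlier results of these data known, so these counts describe it and test nothing.

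The additive limma fit, which uses all 4 arrays with genotype as a covariate and has 1 residual degree of freedom, called 0 of 42 members once its chlorhexidine p-values were adjusted by Benjamini-Hochberg over 12754 genes, of which it called 0.0941%. The adjusted p of limma ran from 0.0504 (Rsad2) to 0.243 over the members, and 41 of 42 had an unadjusted p under 0.05, against 23% of all genes. This fit counts a difference in response between the genotypes as error. The limma count was 42 of 42 with a pseudocount of 32, where 18.5% of all genes passed, and 42 of 42 with an intensity trend in the variance prior, where 19.5% passed. Among genes Present on all 4 arrays it was 37 of 37 members, where 21.4% of the genes fitted passed.

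**Figure D1:**
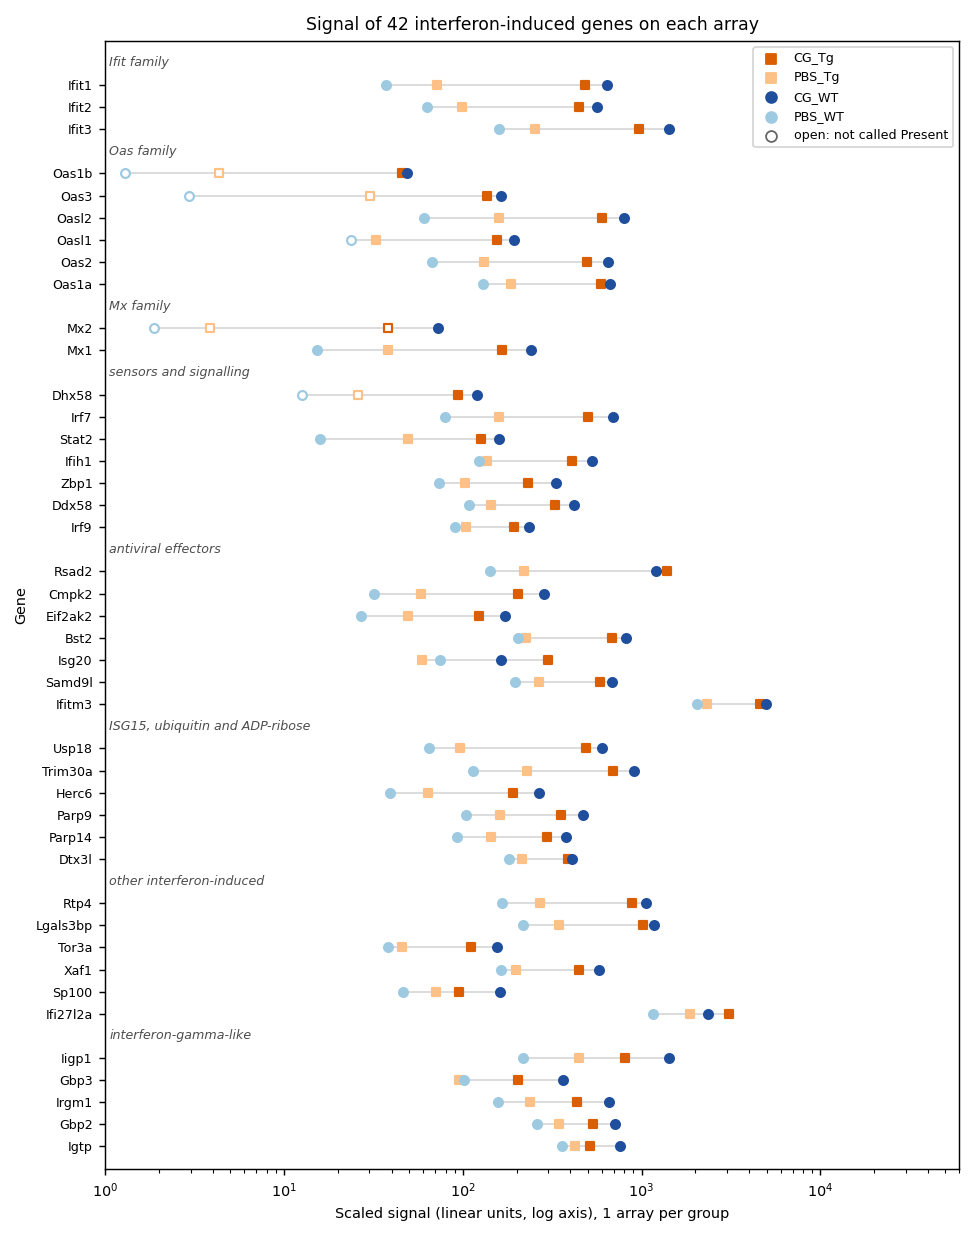
Scaled signal of the 42 measured genes on each array, on a log axis, with genes grouped by role and 1 point per array; squares are SAP-BNP-Tg, circles wild type, dark points chlorhexidine, light points ethanol/PBS, and open points were not called Present. The 2 dark points lie to the right of the 2 light ones in each of the 42 rows, and levels are comparable within a row, not between rows.

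The 4 arrays fell in the same order for most members. In 38 of 42 the signal was highest in CG_WT, then CG_Tg, then PBS_Tg, and lowest in PBS_WT, an order seen in 12.7% of all genes (1625). In every member, and in 3845 of all genes, both CG arrays lay above both PBS arrays, which this order requires. The exceptions were Rsad2, Isg20 and Ifi27l2a, which were highest in CG_Tg, and Gbp3 and Isg20, which were lowest in PBS_Tg. PBS_WT was the lowest array for 40 of 42 members, and it is also the array where some control probes stood apart. The part of array quality in this order was not tested. With the vehicle arrays exchanged, 40 of 42 members were higher in CG_Tg than in PBS_WT (5.17% of all genes) and 39 of 42 were higher in CG_WT than in PBS_Tg (7.23% of all genes). The medians were then 2.20 for CG_Tg minus PBS_WT and 1.85 for CG_WT minus PBS_Tg. The members not called in that setting were Igtp in both comparisons (0.51 and 0.85), Mx2 against PBS_WT because it was Absent in CG_Tg, and Dtx3l (0.94) and Ifi27l2a (0.35) against PBS_Tg.

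Other probe sets of the same genes bear on these directions. Of the 17 members with several probe sets Present on at least 1 array, all sets gave 1 direction of the chlorhexidine difference in 17 in SAP-BNP-Tg and in 16 in wild type, with Xaf1 the exception. For CG_Tg minus CG_WT they gave 1 direction in 13 of 17 (not in Cmpk2, Dhx58, Rsad2 and Xaf1), and for PBS_Tg minus PBS_WT in 13 of 17 (not in Dhx58, Parp14, Tor3a and Xaf1). By the 2-fold rule, probe sets of 7 members differed in the call for chlorhexidine in SAP-BNP-Tg. In Iigp1 and Sp100 another probe set was called and the one used was not, and in Cmpk2, Dhx58, Eif2ak2, Rtp4 and Xaf1 it was the reverse. In wild type this held for 2 members, Dhx58 and Xaf1, whose other probe set was not called.

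Promoters of several members are shown because these genes were higher together and many carry the same short motif. The motif searched for the interferon-stimulated response element was a GAAA repeat, that is GAAA, any 2 bases and GAAA again, and the one for a STAT dimer site was TTCNNNGAA, each on both strands in the 250 bases before the gene's start in the RefSeq promoter table (GRCm38.p6). Of the 42 measured members, 29 had an entry, and 12 of these 29 (41.4%) held the GAAA repeat, against 3.46% of the 27025 genes in the table. TTCNNNGAA was found in 6 of 29 (20.7%), against 8.13% of all genes. The last 150 bases before the start are printed 5′ to 3′ on the gene's strand, with every match to either motif in capitals. They cover 4 type I-like and 3 interferon-gamma-like genes whose entry held the GAAA repeat, and Isg20, whose chlorhexidine difference was larger in SAP-BNP-Tg. Ifit2, Oasl1 and Oasl2, the type I-like genes with an entry but no GAAA repeat, are not printed.
Ifit1 (chr19:34640739-34640888, plus strand): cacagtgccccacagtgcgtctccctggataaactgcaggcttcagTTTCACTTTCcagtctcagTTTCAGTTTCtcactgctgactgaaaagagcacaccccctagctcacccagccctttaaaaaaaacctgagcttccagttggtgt
Ifit3 (chr19:34583379-34583528, plus strand): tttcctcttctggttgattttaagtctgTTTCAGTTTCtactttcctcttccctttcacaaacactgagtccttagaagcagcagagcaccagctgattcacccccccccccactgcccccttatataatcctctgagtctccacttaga
Oas1a (chr5:120907526-120907675, minus strand): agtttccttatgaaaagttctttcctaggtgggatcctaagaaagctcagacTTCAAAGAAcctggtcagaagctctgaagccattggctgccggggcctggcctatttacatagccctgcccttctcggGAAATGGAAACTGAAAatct
Oas3 (chr5:120777660-120777809, minus strand): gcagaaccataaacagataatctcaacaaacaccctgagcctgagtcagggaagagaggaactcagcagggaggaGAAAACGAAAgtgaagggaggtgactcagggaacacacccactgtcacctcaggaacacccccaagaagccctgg
Gbp2 (chr3:142620513-142620662, plus strand): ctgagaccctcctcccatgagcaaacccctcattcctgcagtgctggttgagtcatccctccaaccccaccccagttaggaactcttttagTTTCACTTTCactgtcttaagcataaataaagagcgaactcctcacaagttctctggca
Irgm1 (chr11:48871421-48871570, minus strand): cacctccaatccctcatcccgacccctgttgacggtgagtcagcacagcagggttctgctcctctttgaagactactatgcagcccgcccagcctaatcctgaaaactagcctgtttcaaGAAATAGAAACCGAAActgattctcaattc
Igtp (chr11:58199406-58199555, plus strand): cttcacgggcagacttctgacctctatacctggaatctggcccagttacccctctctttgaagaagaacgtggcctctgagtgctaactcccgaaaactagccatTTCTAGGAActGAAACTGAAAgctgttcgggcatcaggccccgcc
Isg20 (chr7:78913274-78913423, plus strand): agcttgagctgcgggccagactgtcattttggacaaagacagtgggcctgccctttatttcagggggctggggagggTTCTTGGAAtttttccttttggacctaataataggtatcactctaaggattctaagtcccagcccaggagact

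Ifit1 holds a pair of GAAA repeats on the opposite strand, TTTCACTTTC and TTTCAGTTTC, whose first bases lie at -104 and -85 from the start. In Oas1a and Irgm1 a pair of matches overlaps, so that the capitals run together. Oas1a has a further TTCNNNGAA match at -98. Igtp has a TTCNNNGAA match at -45 followed by a GAAA repeat at -34. The Isg20 stretch holds a TTCNNNGAA match at -73 and no GAAA repeat, and the table's other 2 entries for Isg20 hold neither. All 4 interferon-gamma-like members with an entry (Gbp2, Gbp3, Igtp and Irgm1) held the GAAA repeat, as did 4 of the 7 type I-like members with one (Ifit1, Ifit3, Oas1a and Oas3). The 12 members with the GAAA repeat had a median log2 difference of 1.59 in SAP-BNP-Tg and 2.67 in wild type, and the 17 without it had 1.56 and 2.09. With C required as the first spacer base the order turned, at 1.48 and 2.20 for the 8 with the repeat and 1.58 and 2.42 for the 21 without it. A match is a description of the letters, and no binding was measured.

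The Ifit genes encode proteins that bind viral RNA and block its translation, and all 3, whose genes lie together on chromosome 19, were Present on every array. Ifit1 had scaled signals of 485 in CG_Tg against 71.9 in PBS_Tg, and 639.9 in CG_WT against 37.1 in PBS_WT. It was 6.75-fold higher in SAP-BNP-Tg and 17.2-fold higher in wild type. The Ifit1 signal in both CG arrays was several times that in either PBS array, and on the log2 scale the gap between the 2 CG arrays (-0.40, CG_Tg minus CG_WT) was smaller in size than that between the 2 PBS arrays (0.95, PBS_Tg minus PBS_WT). Ifit2 had 446 in CG_Tg against 99.5 in PBS_Tg, and 560.3 in CG_WT against 62.9 in PBS_WT, and was 4.48-fold higher in SAP-BNP-Tg and 8.91-fold higher in wild type. Ifit3, which stabilises Ifit1 in a complex in human cells, had 964 in CG_Tg against 254 in PBS_Tg, and 1426 in CG_WT against 159 in PBS_WT. Its folds were 3.80-fold higher in SAP-BNP-Tg and 8.99-fold higher in wild type. In all 3 genes the vehicle arrays differed in the direction opposite to the chlorhexidine arrays.

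Oas enzymes are sensors of double-stranded RNA that make short oligoadenylates, which switch on the nuclease RNase L, and their genes lie on chromosome 5. All 6 measured Oas genes were called higher in both genotypes, with medians of 2.05 in SAP-BNP-Tg and 3.50 in wild type. Oas1a had 591 in CG_Tg against 186 in PBS_Tg, and 662 in CG_WT against 129.7 in PBS_WT. It was 3.18-fold higher in SAP-BNP-Tg and 5.11-fold higher in wild type, the smallest difference among the type I-like members in each genotype. Oas2 had 498 in CG_Tg against 132 in PBS_Tg, and 649.7 in CG_WT against 67.1 in PBS_WT, and was 3.78-fold higher in SAP-BNP-Tg and 9.68-fold higher in wild type. Oas3 was seen only with chlorhexidine, at 137 in CG_Tg against 30.4 (Absent) in PBS_Tg, and 163 in CG_WT against 2.93 (Absent) in PBS_WT. Its folds are therefore set against undetected signal, at least 4.50-fold higher in SAP-BNP-Tg and at least 55.7-fold higher in wild type. The 55.7 is nominal, since the same probe set was still Absent at 30.4 in PBS_Tg. Here and below, "at least" marks a fold against an Absent array and is no guaranteed bound. Oas1b was likewise Absent without chlorhexidine, at 46.0 in CG_Tg against 4.30 (Absent) in PBS_Tg, and 48.6 in CG_WT against 1.29 (Absent) in PBS_WT, and was at least 10.7-fold higher in SAP-BNP-Tg and at least 16.6-fold higher in wild type. The Oas1b gene of C57BL/6 mice is known to carry a premature stop codon, and the array reads its transcript only.

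The Oas-like genes followed the same order of arrays. Oasl1, which restrains Irf7 translation in mouse cells, had 155 in CG_Tg against 32.5 in PBS_Tg, and 194 in CG_WT against 23.6 (Absent) in PBS_WT, and was 4.76-fold higher in SAP-BNP-Tg and at least 8.22-fold higher in wild type. Oasl2 had 604 in CG_Tg against 159 in PBS_Tg, and 801 in CG_WT against 60.5 in PBS_WT, and was 3.80-fold higher in SAP-BNP-Tg and 13.2-fold higher in wild type. Oasl2 was also called higher in PBS_Tg than in PBS_WT, by a log2 difference of 1.39. Oas1b, Oas1a and its neighbours are similar in sequence, and their probe sets may share signal.

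Mx proteins are dynamin-like GTPases that trap viral components, and both genes lie on chromosome 16. Mx1, an allele with a known deletion in C57BL/6 mice, had 165 in CG_Tg against 37.9 in PBS_Tg, and 242 in CG_WT against 15.3 in PBS_WT. It was 4.35-fold higher in SAP-BNP-Tg and 15.8-fold higher in wild type, and its vehicle arrays differed by 1.31 on the log2 scale (PBS_Tg minus PBS_WT). Mx2 was Present in CG_WT only, at 38.0 (Absent) in CG_Tg against 3.86 (Absent) in PBS_Tg, and 72.9 in CG_WT against 1.87 (Absent) in PBS_WT. Its fold in wild type, nominally at least 24.9-fold higher, rests on undetected signal, as 38.0 was still Absent in CG_Tg. No fold is given in SAP-BNP-Tg. Mx2 was the 1 type I-like member of 11 that was not called in SAP-BNP-Tg.

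The next group holds the sensors and transcription factors of the pathway, of which 6 of 7 were called higher in SAP-BNP-Tg and 7 of 7 in wild type. Irf7, the factor that drives interferon alpha genes, had 501 in CG_Tg against 159 in PBS_Tg, and 691 in CG_WT against 79.3 in PBS_WT. It was 3.15-fold higher in SAP-BNP-Tg and 8.71-fold higher in wild type. Stat2 had 126 in CG_Tg against 49.5 in PBS_Tg, and 159.5 in CG_WT against 15.8 in PBS_WT, and was 2.56-fold higher in SAP-BNP-Tg and 10.1-fold higher in wild type. In Stat2 the PBS_WT signal lay far under the other 3, and the wild-type fold rests on it: PBS_Tg minus PBS_WT was 1.65, against -0.33 for CG_Tg minus CG_WT. Irf9, the DNA-binding partner of Stat2, differed less, with 193 in CG_Tg against 104 in PBS_Tg, and 235 in CG_WT against 90.3 in PBS_WT. It was 1.86-fold higher in SAP-BNP-Tg and 2.60-fold higher in wild type, and the SAP-BNP-Tg value was under the 2-fold rule.

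Among the sensors, Dhx58, the helicase LGP2, was Absent on both vehicle arrays, at 94.5 in CG_Tg against 25.8 (Absent) in PBS_Tg, and 120.2 in CG_WT against 12.6 (Absent) in PBS_WT. It was at least 3.66-fold higher in SAP-BNP-Tg and at least 9.5-fold higher in wild type. Ifih1 (MDA5) and Ddx58 (RIG-I), the helicases that detect viral RNA in the cytosol, had log2 differences of 1.58 and 1.18 in SAP-BNP-Tg, against 2.09 and 1.96 in wild type. Zbp1, which senses Z-form nucleic acid and can start necroptosis, had 1.17 in SAP-BNP-Tg and 2.16 in wild type. Ifih1, Ddx58 and Zbp1 were Present on every array.

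Antiviral effectors were called higher in 6 of 7 cases in SAP-BNP-Tg and in 7 of 7 in wild type. Rsad2, which encodes viperin, had 1395 in CG_Tg against 221 in PBS_Tg, and 1200.1 in CG_WT against 142 in PBS_WT. It was 6.31-fold higher in SAP-BNP-Tg and 8.47-fold higher in wild type, and it was 1 of 3 members with more signal in CG_Tg than in CG_WT. The Rsad2 probe sets did not agree on that point, since 1 of its 3 put CG_WT marginally above CG_Tg. Cmpk2, the nucleotide kinase whose gene neighbours that of Rsad2, had 203 in CG_Tg against 58.4 in PBS_Tg, and 286 in CG_WT against 32 in PBS_WT, and was 3.47-fold higher in SAP-BNP-Tg and 8.94-fold higher in wild type. Eif2ak2, the kinase PKR that halts translation, had 124 in CG_Tg against 49.7 in PBS_Tg, and 171 in CG_WT against 26.8 in PBS_WT, and was 2.49-fold higher in SAP-BNP-Tg and 6.40-fold higher in wild type. Ifitm3, which blocks viral entry, had the smallest mean difference of the group, with 4615 in CG_Tg against 2310.3 in PBS_Tg, and 4977 in CG_WT against 2041 in PBS_WT. Its log2 differences were 0.998 in SAP-BNP-Tg, where it missed the rule narrowly, and 1.29 in wild type.

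Isg20, an exonuclease that degrades RNA, went against the common order. It had 299 in CG_Tg against 59.4 in PBS_Tg, and 164 in CG_WT against 74.7 in PBS_WT. The chlorhexidine difference was 5.04-fold higher in SAP-BNP-Tg and 2.19-fold higher in wild type. With the probe sets used, Isg20 was the only 1 of 42 members with the larger difference in SAP-BNP-Tg. Both sides contributed, with 0.87 for CG_Tg minus CG_WT and -0.33 for PBS_Tg minus PBS_WT on the log2 scale. Isg20 has 1 probe set, so no second one checks this, and its full values are given because they were seen to stand apart. Bst2 (tetherin, which holds virus particles on the cell) and Samd9l (a restriction factor) had log2 differences of 1.60 and 1.12 in SAP-BNP-Tg, against 2.02 and 1.81 in wild type.

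Genes of the ISG15, ubiquitin and ADP-ribose systems were called higher in 5 of 6 cases in SAP-BNP-Tg and in 6 of 6 in wild type. Usp18, which removes ISG15 from proteins and damps type I receptor signalling, had 489.6 in CG_Tg against 96.1 in PBS_Tg, and 602 in CG_WT against 64.7 in PBS_WT. It was 5.09-fold higher in SAP-BNP-Tg and 9.29-fold higher in wild type. Trim30a, a TRIM-family regulator of inflammatory signalling, had 689 in CG_Tg against 229 in PBS_Tg, and 912 in CG_WT against 115 in PBS_WT, and was 3.01-fold higher in SAP-BNP-Tg and 7.95-fold higher in wild type. Herc6, the ISG15 ligase of mouse cells, had 189.9 in CG_Tg against 63.5 in PBS_Tg, and 267 in CG_WT against 39.2 in PBS_WT, and was 2.99-fold higher in SAP-BNP-Tg and 6.81-fold higher in wild type. Dtx3l, a ubiquitin ligase that pairs with Parp9, had the smallest mean difference of the group, with 386 in CG_Tg against 214 in PBS_Tg, and 409.8 in CG_WT against 181 in PBS_WT. Its log2 differences were 0.85 in SAP-BNP-Tg, under the rule, and 1.18 in wild type. Parp9 and Parp14, ADP-ribosyltransferase-family members on chromosome 16 with Dtx3l, had 1.13 and 1.04 in SAP-BNP-Tg, against 2.17 and 2.04 in wild type.

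The last group of neither class had 4 of 6 members called higher in SAP-BNP-Tg and 6 of 6 in wild type. Rtp4, a chaperone of membrane receptors, had 879 in CG_Tg against 269 in PBS_Tg, and 1062 in CG_WT against 165 in PBS_WT, and was 3.27-fold higher in SAP-BNP-Tg and 6.45-fold higher in wild type. Lgals3bp, a secreted galectin-binding glycoprotein, had 1015 in CG_Tg against 344 in PBS_Tg, and 1170.1 in CG_WT against 218 in PBS_WT, and was 2.95-fold higher in SAP-BNP-Tg and 5.37-fold higher in wild type. Tor3a, an ATPase of the endoplasmic reticulum, had 111 in CG_Tg against 45.7 in PBS_Tg, and 155 in CG_WT against 38.0 in PBS_WT, and was 2.44-fold higher in SAP-BNP-Tg and 4.07-fold higher in wild type. Ifi27l2a, a small membrane protein, had 3073 in CG_Tg against 1861 in PBS_Tg, and 2365 in CG_WT against 1157 in PBS_WT. Its folds of 1.65-fold higher in SAP-BNP-Tg and 2.04-fold higher in wild type were at the low end of the list, and CG_Tg was its highest array. Xaf1, an XIAP-binding protein, had log2 differences of 1.16 and 1.82 in SAP-BNP-Tg and wild type in that order, although its dimmer probe set gave 0.05 and -0.22. Sp100, a protein of nuclear bodies, had 0.42 in SAP-BNP-Tg, where it was not called, and was 3.49-fold higher in wild type. Its other probe set, Present on all 4 arrays, gave log2 differences of 1.45 in SAP-BNP-Tg, which would be called, and 2.55 in wild type.

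**Figure D2:**
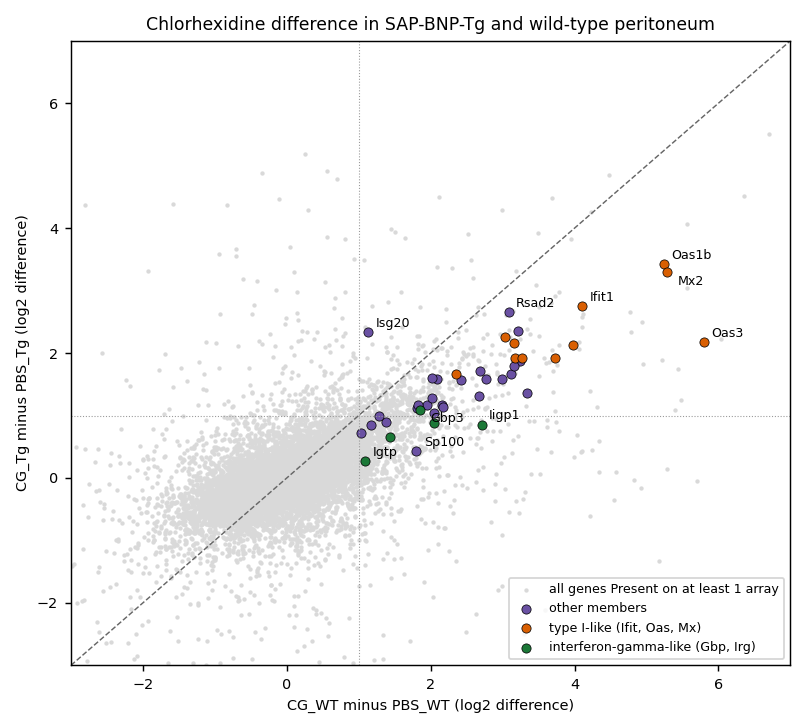
Log2 chlorhexidine difference in SAP-BNP-Tg (vertical) and wild type (horizontal), with 1 point per gene; grey points are all genes Present on at least 1 array (those beyond the axes are not drawn), coloured points the 42 members by class, dotted lines mark 1 and the dashed line marks equal differences. Isg20 is the 1 member above the dashed line, and the interferon-gamma-like members lie near or under the horizontal dotted line.

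The interferon-gamma-like members are GTPases that gather on the vacuoles of intracellular microbes, and all 5 were Present on every array. They were called higher in 1 of 5 cases in SAP-BNP-Tg and in 5 of 5 in wild type. Iigp1 had 809 in CG_Tg against 447 in PBS_Tg, and 1425 in CG_WT against 218 in PBS_WT. It was 1.81-fold higher in SAP-BNP-Tg, under the rule, and 6.53-fold higher in wild type. Its other probe set, also Present on all 4 arrays, gave log2 differences of 1.15 in SAP-BNP-Tg, which would be called, and 2.64 in wild type, so the class count in SAP-BNP-Tg depends on the probe set chosen. Irgm1, a regulator of the other Irg proteins, had 438 in CG_Tg against 238 in PBS_Tg, and 654 in CG_WT against 158 in PBS_WT, and was 1.84-fold higher in SAP-BNP-Tg and 4.14-fold higher in wild type. Igtp had 511 in CG_Tg against 424 in PBS_Tg, and 762 in CG_WT against 358 in PBS_WT. Its 4 signals were the closest together of the class, and the folds were 1.21-fold higher in SAP-BNP-Tg and 2.13-fold higher in wild type.

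Among the guanylate-binding proteins, Gbp2 had 538 in CG_Tg against 343 in PBS_Tg, and 706 in CG_WT against 260.2 in PBS_WT, and was 1.57-fold higher in SAP-BNP-Tg and 2.71-fold higher in wild type. Gbp3 had 202 in CG_Tg against 94.8 in PBS_Tg, and 363 in CG_WT against 101 in PBS_WT. It was 2.13-fold higher in SAP-BNP-Tg and 3.60-fold higher in wild type, the 1 member of its class called in SAP-BNP-Tg with the probe sets used. Its PBS_Tg and PBS_WT signals were near each other, at a log2 difference of -0.09. Gbp genes are close relatives in sequence, so a probe set may read more than 1 of them.

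Set side by side, the median log2 difference was 2.16 for the 11 type I-like members and 0.85 for the 5 interferon-gamma-like members in SAP-BNP-Tg, and 3.73 and 1.85 in wild type. In SAP-BNP-Tg the lowest type I-like value, 1.67 (Oas1a), lay above the highest interferon-gamma-like value, 1.09 (Gbp3). In wild type the classes overlapped, since Iigp1 at 2.71 lay above Oas1a at 2.35. The log2 differences of type I-like genes that were not Present on a vehicle array rest on undetected signal. Among genes Present on all 4 arrays the type I-like medians were 1.93 in SAP-BNP-Tg and 3.28 in wild type (7 genes). No test was made between the classes, since genes are not replicates and probe sets differ in range. With a pseudocount of 32 the gap between the class medians was 0.74 in SAP-BNP-Tg and 0.96 in wild type, in place of 1.31 and 1.88.

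Genes of the same GTPase families outside the list gave similar values. Of 12 further Gbp and Irg genes looked for, 5 were measured, and 1 of 5 was called higher in SAP-BNP-Tg and 5 of 5 in wild type, with medians of 0.66 and 1.76. Gbp7 had 407 in CG_Tg against 226 in PBS_Tg, and 747 in CG_WT against 169 in PBS_WT. Its log2 difference was 0.85 in SAP-BNP-Tg and 2.14 in wild type. Irgm2 had 0.62 in SAP-BNP-Tg and 1.84 in wild type. Ifi47, also an Irg protein, was the 1 called in SAP-BNP-Tg, at 1.06, with 1.76 in wild type.

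**Figure D3:**
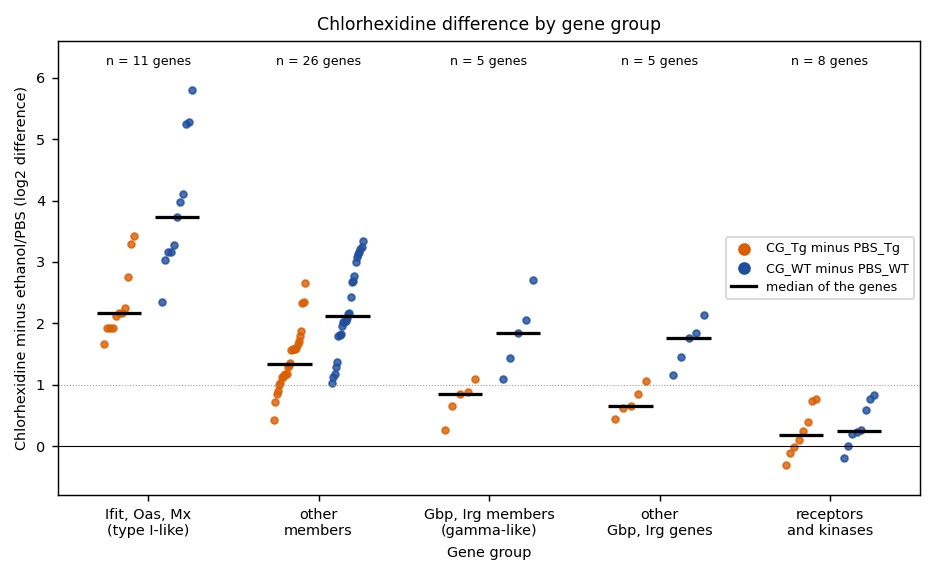
Log2 chlorhexidine difference of each gene by group, with SAP-BNP-Tg points left of wild-type points; bars are medians over the genes, the dotted line marks 1, and genes outside the list are shown if Present on at least 1 array. The Ifit, Oas and Mx medians were 2.16 in SAP-BNP-Tg and 3.73 in wild type, and those of the Gbp and Irg members 0.85 and 1.85. The receptors' and kinases' medians over all 9 measured were 0.10 and 0.26. These 9 include Ifnlr1, which was Absent on every array and is not drawn, so the 2 medians need not equal the bars.

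The difference between the genotypes was seen on both sides of the comparison. Under chlorhexidine 39 of 42 members had less signal in CG_Tg than in CG_WT, where 53.2% of all genes did, with a median of -0.37. The other 3 (46.8% of all genes were above 0) were Isg20, Ifi27l2a and Rsad2, at 0.87, 0.38 and 0.22. None of the 42 was called lower at 2-fold there, against 0.964% of all genes, and none was called higher (0.784% of all genes). Other probe sets of Eif2ak2 (-1.05) and Rtp4 (-1.43) were called lower there. Under ethanol/PBS 40 of 42 had more signal in PBS_Tg than in PBS_WT, where 44.6% of all genes did, with a median of 0.64. Of these, 6 were called higher (0.957% of all genes), namely Oasl2, Mx1, Irf7, Stat2, Trim30a and Iigp1. Trim30a and Irf7 stood at the threshold itself, and Stat2 had the largest value of the 6, 1.65. In each of the 3 with a second probe set, that one fell under 2-fold, at 0.73 in Stat2, 0.61 in Trim30a and 0.73 in Iigp1. In 4 members not called, Dtx3l, Eif2ak2, Herc6 and Zbp1, another probe set was called. None was called lower, against 0.502% of all genes.

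Taking the chlorhexidine difference in SAP-BNP-Tg minus that in wild type, 41 of 42 members were below 0, where 48.8% of all genes were, with a median of -0.99. The 1 above 0 was Isg20, where 51.2% of all genes were above 0. In 13 of the 17 members with several probe sets, all sets gave 1 direction of this difference. In Dhx58, Parp14, Tor3a and Xaf1 a probe set not used was above 0, at 1.94, 0.87, 0.13 and 0.27. By the 2-fold rule 20 of 42 were lower (2.95% of all genes) and 1, again Isg20, was higher (1.99% of all genes). Of the 32 members called higher in both genotypes, 31 had the smaller difference in SAP-BNP-Tg, and so did 84.2% of the 387 genes called higher in both. The median difference between the PBS arrays, 1 of which is the array where some control probes stood apart, was larger in size than that between the CG arrays. The interferon-gamma-like class had medians of -0.58 between the CG arrays and 0.40 between the PBS arrays, against -0.38 and 0.97 for the type I-like class. This difference of differences cannot be tested for any gene with 1 array a group.

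**Figure D4:**
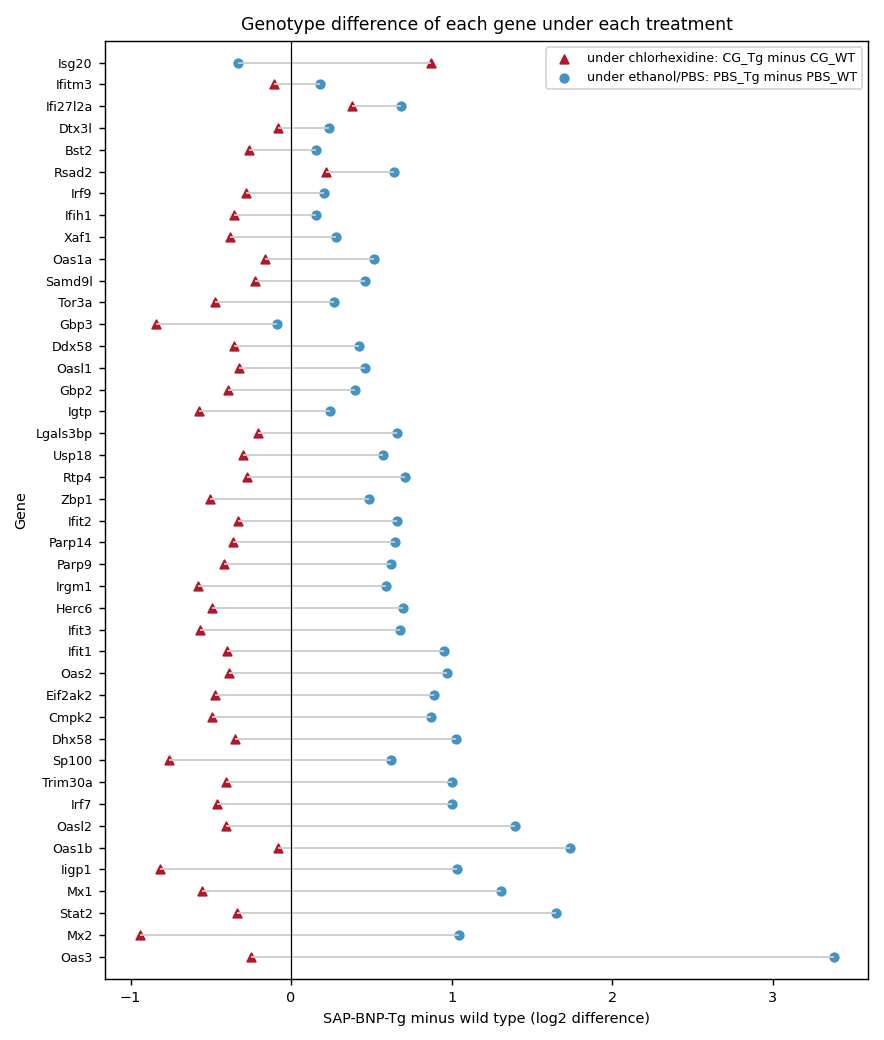
SAP-BNP-Tg minus wild type on the log2 scale for each of the 42 members, with triangles for the chlorhexidine arrays and circles for the ethanol/PBS arrays, sorted by the gap between them. Triangles lie left of 0 in 39 of 42 genes and circles right of 0 in 40 of 42.

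Interferons themselves were barely detected. Of 14 interferon genes looked for, 8 were measured and 2 were Present on any array. Ifng, interferon gamma, was Present in CG_WT only and dim there, at 8.28 (Absent) in CG_Tg against 10.6 (Absent) in PBS_Tg, and 19.1 in CG_WT against 0.819 (Absent) in PBS_WT. Ifnb1, interferon beta, was Present in CG_Tg only, at 11.4 in CG_Tg against 12.0 (Absent) in PBS_Tg, and 5.41 (Absent) in CG_WT against 8.55 (Absent) in PBS_WT, and its signal there was no higher than the Absent signal in PBS_Tg. The 6 interferon alpha genes measured were Absent on all 4 arrays. An Absent call says nothing of the protein or of transcripts from a few cells.

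None of the 9 receptor chains and kinases measured was called in either genotype, with medians of 0.10 in SAP-BNP-Tg and 0.26 in wild type. Ifnar1 had log2 differences of 0.40 in SAP-BNP-Tg and 0.59 in wild type, and Ifnar2 had 0.74 and 0.83. Il10rb, a chain shared by the interferon lambda and interleukin 10 receptors, had 0.78 and 0.77. Ifngr1 had 0.25 and 0.26, and Ifngr2 had -0.31 and 0.20, again with SAP-BNP-Tg given before wild type.

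Of 11 further transcription factors and inhibitors measured, 1 was called higher in SAP-BNP-Tg and 4 in wild type. Irf1, an early target of interferon gamma, had 229 in CG_Tg against 206 in PBS_Tg, and 296 in CG_WT against 222 in PBS_WT, log2 differences of 0.15 and 0.41. Socs3, a feedback inhibitor of cytokine receptors, was 2.37-fold higher in SAP-BNP-Tg and 2.26-fold higher in wild type. Nmi, an interferon-induced adaptor, had 0.75 in SAP-BNP-Tg and 1.04 in wild type. Batf2, a factor induced in macrophages by interferon gamma, was Present in CG_WT only. It had 37.5 (Absent) in CG_Tg against 27.5 (Absent) in PBS_Tg, and 65.8 in CG_WT against 16.6 (Absent) in PBS_WT. Its wild-type fold, nominally at least 3.96-fold higher, rests on undetected signal, as 37.5 was still Absent in CG_Tg.

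Nucleic acid sensors outside the list were called higher in 5 of 13 cases in SAP-BNP-Tg and in 8 of 13 in wild type, with medians of 0.81 and 1.32. Tlr3, a receptor for double-stranded RNA, was 4.17-fold higher in SAP-BNP-Tg and 3.54-fold higher in wild type, and so showed the larger difference in SAP-BNP-Tg. Tlr7, a receptor for single-stranded RNA, was at least 2.84-fold higher in SAP-BNP-Tg and at least 4.0-fold higher in wild type. Cgas, the sensor of cytosolic DNA, was 2.51-fold higher in SAP-BNP-Tg and 3.92-fold higher in wild type. The adaptor Mavs, which relays signals from Ifih1 and Ddx58, was the 1 sensing gene called lower, and only in wild type (log2 difference -1.44), with -0.57 in SAP-BNP-Tg. Mavs was named after its value was seen.

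Of 7 chemokines and enzymes typical of interferon gamma, 2 were called higher in SAP-BNP-Tg and 3 in wild type. Cxcl9 and Cxcl10 draw T cells into tissue. Cxcl10 had 195 in CG_Tg against 40.4 in PBS_Tg, and 387 in CG_WT against 34.2 in PBS_WT, and was 4.82-fold higher in SAP-BNP-Tg and 11.3-fold higher in wild type. Cxcl9 had 326 in CG_Tg against 134 in PBS_Tg, and 494 in CG_WT against 133 in PBS_WT, and was 2.44-fold higher in SAP-BNP-Tg and 3.71-fold higher in wild type. Both Cxcl9 vehicle arrays had nearly the same signal, so the smaller SAP-BNP-Tg difference of Cxcl9 lay between the chlorhexidine arrays. Ido1, a tryptophan-degrading enzyme induced by interferon gamma, was Present in PBS_Tg only, at 4.55 (Absent) in CG_Tg against 17.7 in PBS_Tg, and 7.48 (Absent) in CG_WT against 11.9 (Absent) in PBS_WT.

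A further 31 measured interferon-responsive genes were called higher in 18 cases in SAP-BNP-Tg and in 20 in wild type, none lower, with medians of 1.09 and 1.67. Ddx60, a helicase that aids RNA sensing, was 4.95-fold higher in SAP-BNP-Tg and 10.4-fold higher in wild type. Ms4a4c, a membrane protein of the MS4A family, was 4.48-fold higher in SAP-BNP-Tg and 8.90-fold higher in wild type. Phf11d, a PHD-finger protein, was 3.70-fold higher in SAP-BNP-Tg and 6.33-fold higher in wild type. Over all 84 measured pathway genes outside the list, 27 were called higher in SAP-BNP-Tg and 40 in wild type, against 0 and 1 called lower. Of all genes, 3.81% and 8.22% were called higher there, and 1.4% and 4.93% lower.

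Immune cells express many of these genes, and in whole tissue more cells of a type and more RNA per cell cannot be told apart. For all marker lists below, the shares of all genes called higher were 3.81% in SAP-BNP-Tg and 8.22% in wild type. The shares called lower were 1.4% and 4.93%. Of 10 monocyte and macrophage markers, all Present on every array, 3 were called higher in SAP-BNP-Tg and 5 in wild type. Their medians were 0.78 and 1.04. Their summed scaled signal was 9232 in CG_Tg against 6159 in PBS_Tg, and 9351 in CG_WT against 5720 in PBS_WT. Lyz2 had log2 differences of 0.39 and 0.59, Csf1r 0.38 and 0.28, and Fcgr1, itself induced by interferon gamma, 2.24 and 2.73 (SAP-BNP-Tg before wild type). The other markers called were Itgam (1.10 and 2.19) and Cd68 (1.18 and 1.69) in both genotypes, and Ccr2 (0.98 and 1.99) and Mrc1 (0.90 and 1.23) in wild type. The part of macrophage number in the members' differences was not tested.

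Neutrophil markers did not follow the members' order of arrays. Of 8 measured, 4 were called higher in SAP-BNP-Tg and 3 in wild type, and all 8 had more signal in CG_Tg than in CG_WT. The summed signal was 2288 in CG_Tg against 277.9 in PBS_Tg, and 481 in CG_WT against 131 in PBS_WT. Most of the CG_Tg sum came from S100a8 (1066) and S100a9 (929.7). S100a8, S100a9 and Csf3r were called higher in both genotypes, and Mmp8 in SAP-BNP-Tg only. The chlorhexidine difference was above 0 for all 8 in SAP-BNP-Tg. In wild type it was below 0 for 4, namely Cxcr2 (-0.12), Mmp9 (-0.49), Ngp (-0.87) and Camp (-1.57). Cxcr2 and Camp were Absent on all 4 arrays. Isg20, Rsad2 and Ifi27l2a were the members that shared the higher value in CG_Tg, and the part of neutrophils in them was not tested.

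T and NK cell markers had medians of 0.21 in SAP-BNP-Tg and 0.37 in wild type, with 1 of 12 called higher and 1 lower in SAP-BNP-Tg, and 3 higher and 1 lower in wild type. Those higher were Gzmb (2.74 and 3.51, Absent on both vehicle arrays) in both genotypes, and Klrk1 (0.79 and 1.26) and Nkg7 (0.08 and 1.32) in wild type. Those lower were Cd3g (-1.07 and -0.43) in SAP-BNP-Tg and Cd2 (-1.27 and -1.29) in wild type. The SAP-BNP-Tg value comes before the wild-type value in each pair. The summed signal of the T and NK cell markers was 318 in CG_Tg against 283 in PBS_Tg, and 482 in CG_WT against 387 in PBS_WT. Of the plasmacytoid dendritic cell markers, a cell type known for making interferon alpha, Siglech was Absent on all 4 arrays and none of 7 was called higher in either genotype. Ly6d was called lower in both, by at least 3.98-fold in SAP-BNP-Tg and by 7.56-fold in wild type. The summed signal of these 7 was 4994 in CG_Tg against 6627 in PBS_Tg, and 5281 in CG_WT against 7857 in PBS_WT, most of it from Cox6a2, which muscle also expresses.

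Some markers of the tissue's own cells also differed with treatment. The 8 skeletal muscle markers had 0 called in SAP-BNP-Tg and 1 called lower in wild type (Myh7, log2 difference -1.62). Their summed signal was 61266 in CG_Tg against 60523 in PBS_Tg, and 61029 in CG_WT against 76272 in PBS_WT. Of 7 fibroblast markers 2 were called higher in SAP-BNP-Tg and 4 in wild type, with a summed signal of 24918 in CG_Tg against 15579.9 in PBS_Tg, and 29411 in CG_WT against 15125 in PBS_WT. Of the 10 mesothelial markers 1 was called higher in SAP-BNP-Tg (Wt1, 1.26). In wild type 3 were called lower, Upk3b (-1.75), Krt19 (-2.00) and Slpi (-2.56). The summed signal was 969.5 in CG_Tg against 1123 in PBS_Tg, and 539 in CG_WT against 1397 in PBS_WT. Slpi alone had 681 in PBS_WT and 116 in CG_WT, so the wild-type sum rests largely on it. The difference was below 0 for 8 of 10 in wild type, not for Wt1 (0.95) and Krt8 (0.12). It was above 0 for 6 of 10 in SAP-BNP-Tg. Of 5 adipocyte markers 2 were called lower in SAP-BNP-Tg and 3 in wild type, with a summed signal of 8277 in CG_Tg against 11404 in PBS_Tg, and 6141 in CG_WT against 10938 in PBS_WT. Of 6 endothelial markers 0 were called in SAP-BNP-Tg and 2 were called higher in wild type, with a summed signal of 878 in CG_Tg against 839 in PBS_Tg, and 1064 in CG_WT against 755 in PBS_WT. The part of tissue makeup in the members' values was not tested.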

How the data were processed

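Total RNA of the parietal peritoneum was hybridised, after biotin labelling by in vitro transcription, to 4 Affymetrix mouse arrays, 1 per group, per the labels' protocols. The deposited files give, for every probe set, a signal (an intensity on a linear scale), a detection call (Present, Marginal or Absent) and its p-value, per the file headers. How the authors computed and scaled the signal was not given in the sources used here. Values in the deposited table of the whole series equalled those of the array files (0 differing).

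Here each array was scaled to a common 2% trimmed mean, by 1.01 (CG_Tg), 0.877 (PBS_Tg), 0.984 (CG_WT) and 1.17 (PBS_WT). A floor of 0.1 was applied before log2. Of 45037 non-control probe sets, 34945 had 1 gene symbol in the platform annotation, 932 several and 9160 none. Symbols were updated through Entrez identifiers (RefSeq, GRCm38.p6) for 34741. Each gene is represented by the probe set whose mean log2 signal was highest. Calls used a log2 difference of at least 1 and a brighter array that was Present and at or above the 25th percentile of its Present probe sets. For the difference of differences the brightest of the 4 arrays had to meet both conditions. If only the brighter array detected the gene, the fold is against the higher of the dimmer array's lowest Present signal and the gene's own. The lowest Present signal is taken over all probe sets, so such a fold, marked "at least", is nominal and no guaranteed bound. limma 3.58.1 in R 4.3.3 fitted treatment and genotype, with Benjamini-Hochberg adjustment at 0.05, and was tested on simulated data.

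The members, lists, classes and tests were chosen with earlier results of these data known. All members are named. Full values are given for both classes and, in each other role group, for the 3 members highest and the 1 lowest by mean chlorhexidine difference. Of each outside list, up to 3 Present genes with the largest mean change are named, with fixed additions such as receptors. Genes with no single-gene probe set in the table used here are not reported here. Alternatives covered scaling, pseudocount, detection filter, probe set choice, threshold and vehicle array.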

Additional observations from a re-analysis of the deposited data

How the results depend on the processing

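All 672 values of single members' chlorhexidine differences, over 42 members, both genotypes and 8 alternative settings that change the values, stayed above 0. The count called higher ran from 19 to 40 in SAP-BNP-Tg and from 35 to 42 in wild type over the alternatives, with the 19 at a 3-fold threshold. The genotype comparisons depended more on the setting, and the share of all genes called (in brackets) moved too. Under ethanol/PBS the count higher in PBS_Tg, 6 as reported (0.957%), was 21 with the deposited scaling (3.59%), 3 with quantile normalization (0.721%), 1 with a pseudocount of 32 (0.306%), 10 without the filter on dim probe sets (3.02%), 21 at 1.5-fold (3.57%) and 1 at 3-fold (0.243%). Under chlorhexidine 4 members were lower in CG_Tg at 1.5-fold (4.3%) and 1, Isg20, was higher (3.46%). For the difference of differences, 20 as reported (2.95%), the count lower was 34 with the deposited scaling (10.2%), 10 with a pseudocount of 32 (0.988%), 34 at 1.5-fold (9.17%) and 7 at 3-fold (0.925%). The deposited scaling shifted the median of all genes by 0.42 for PBS_Tg minus PBS_WT and by -0.45 for the difference of differences. The gap between the class medians, 1.31 in SAP-BNP-Tg and 1.88 in wild type, was 0.74 and 0.96 with a pseudocount of 32, and 2.27 and 1.04 with the other genotype's vehicle array. The additive limma fit called 0 members with quantile normalization, where 41 had an unadjusted p under 0.05. It called 42 with a pseudocount of 32 (18.5%), 42 with an intensity trend (19.5%) and 37 among genes Present on all 4 arrays (21.4%). The cause was not tested. The GAAA repeat was held by 8 of 29 promoters when its first spacer base had to be C, and by 16 of 29 with the bases after the start included. No paired analysis was possible because the replicate number, 1 in each group, pairs no arrays, and genotype is already a term of the additive fit. Signals near background limit Oas1b, Oas3, Mx2, Oasl1 and Dhx58, which were not Present on at least 1 vehicle array.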
